A study of Mus musculus with 20 samples.

Results

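The myeloid transcription factors described here are 3 groups of genes that direct granulocyte and monocyte development: the C/EBP factors (Cebpa, Cebpb, Cebpd and Cebpe), the interferon regulatory factor gene Irf8, and the repressor gene Gfi1. Members were all probe sets that the array annotation assigns to these 6 gene symbols. Of the 6 genes, 5 were named by a probe set, through 8 of the 45101 probe sets on the array, and Cebpe, which is known for late granulocyte maturation, was not analysed here. All 5 genes passed the filter on dim genes, as did 13479 of the 18194 genes named.

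Expression was measured on 20 Affymetrix arrays from bone marrow cells sorted by flow cytometry from mice aged 8 to 14 weeks. Wild-type C57bl/6 mice gave 7 populations: granulocyte-monocyte progenitors (GMP) and common lymphoid progenitors (CLP), with 3 arrays each, and, with 2 arrays each, CD4 T cells, pro-B cells, lymphoid-primed multipotent progenitors (LMPP), the broader multipotent progenitors (MPP) and hematopoietic stem cells (HSC). The other cells were mature natural killer (NK) cells of 129 mice, of genotype Rag2-- Ets1-- (Ets1-deficient, n = 2) or Rag2-- Ets1++ (Ets1-present, n = 2). Rag2 is needed for antigen receptor rearrangement, so both NK groups came from mice that cannot make B or T cells, and NK cells differed from every other group in strain and Rag2 genotype as well as in cell type. The series was designed to identify NK cell genes that depend on Ets1, a founding member of the ETS family. The sorting gates, the Ets1 allele and the number of animals per sample are not given in the sources used here, so the spread behind each p-value can be technical.

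C/EBP proteins are basic leucine zipper factors that bind DNA as dimers. Cebpa is required for the step from multipotent cells to GMP and for the receptors of granulocyte and macrophage growth factors, Cebpb is associated with emergency granulopoiesis and activated macrophages, and Cebpd is induced with granulocyte maturation and in acute phase responses. Irf8 works mainly with partners such as PU.1, favours monocytes and dendritic cells over neutrophils, and is also expressed in B cells and NK cells. Gfi1 is a zinc finger repressor that recruits histone demethylase and deacetylase complexes, and it is required for neutrophil development while also acting in stem cells and lymphocytes.

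Promoter sequences of 300 bases, from 250 bases before to 50 bases after a transcript start, were read from a RefSeq table of the mouse build GRCm38.p6, which held 4 of the 6 members (not Cebpd or Cebpe). The starts of Cebpa, Irf8 and Gfi1 are printed 5′ to 3′ on the gene's strand, with motif matches in capitals. They lie at chr7:35119043-35119342 on the plus strand for Cebpa, chr8:120736108-120736407 on the plus strand for the first Irf8 start, and chr5:107725756-107726055 on the minus strand for the first Gfi1 start.
Cebpa: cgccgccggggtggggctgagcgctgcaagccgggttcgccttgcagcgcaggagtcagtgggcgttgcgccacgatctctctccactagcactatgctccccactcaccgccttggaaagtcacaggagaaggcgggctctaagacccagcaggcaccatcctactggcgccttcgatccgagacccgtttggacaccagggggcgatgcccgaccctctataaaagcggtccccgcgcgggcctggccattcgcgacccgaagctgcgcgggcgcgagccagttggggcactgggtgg
Irf8: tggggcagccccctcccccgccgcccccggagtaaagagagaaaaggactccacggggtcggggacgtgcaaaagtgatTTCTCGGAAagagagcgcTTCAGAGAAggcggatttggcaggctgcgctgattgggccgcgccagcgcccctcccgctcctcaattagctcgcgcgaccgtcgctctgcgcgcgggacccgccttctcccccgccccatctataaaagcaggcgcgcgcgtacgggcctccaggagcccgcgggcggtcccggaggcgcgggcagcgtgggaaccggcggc
Gfi1: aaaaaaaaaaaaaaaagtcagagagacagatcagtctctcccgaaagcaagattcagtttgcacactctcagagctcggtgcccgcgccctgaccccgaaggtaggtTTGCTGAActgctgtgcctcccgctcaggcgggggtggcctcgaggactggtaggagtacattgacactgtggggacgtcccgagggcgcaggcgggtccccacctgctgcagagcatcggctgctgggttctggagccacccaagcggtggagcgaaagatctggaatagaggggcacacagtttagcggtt
Motifs were searched by their letters on both strands, with positions counted from the transcript start. The Irf8 promoter held the STAT palindrome TTCNNNGAA at 2 places, from -171 to -163 and from -153 to -145, and 8.3% of the 32851 promoters searched held it. The Gfi1 promoter held the C/EBP motif TTGCNNAA from -143 to -136, as did 10.8% of promoters. A second Gfi1 start, at chr5:107724294-107724593 on the minus strand, held the ETS motif CCGGAAG on its opposite strand from 10 to 16, as did 8.86% of promoters. The windows of Cebpa, Cebpb and a second Irf8 start held no match, and no member's window held the PU.1 motif GAGGAAG (13.63% of promoters) or the Gfi1 motif (2.82%). A match describes letters in the window and not a bound site.

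Values are log2 intensities, and levels are compared between groups within a probe set and not between probe sets. The median of an array lay between 3.78 and 4.04, so a level near 4 is that of a dim probe set. Each sorted population had the highest mean level of its own marker list, except that MPP and LMPP had no list of their own. The GMP markers were highest in GMP (10.87), with MPP next at 9.15. These are means of lists, and single markers could be higher elsewhere. The GMP marker Csf3r was 6.99 in GMP, 8.07 in LMPP and 7.89 in MPP. The HSC marker Slamf1 was 6.58 in HSC and 6.82 in CD4 T cells. The early lymphoid marker Il7r was 11.37 in CLP and 11.66 in CD4 T cells. CLP replicates 1 and 3 stood apart, since the mean of 12 housekeeping genes was 9.82 and 9.53 on them, against 10.45 in CLP replicate 2 and 10.35 to 10.72 on the arrays of other groups. The 3′ signal of actin exceeded its 5′ signal by 6.44 to 6.68 on GMP arrays, 3.26 to 5.27 on CLP arrays and 0.98 to 4.07 on the rest; amplification that starts at the 3′ end copies less of the 5′ end of broken RNA. The part of this gap in the differences of GMP and CLP from other groups was not tested. In sorted populations measured in bulk, fewer cells that express a gene and less RNA per cell cannot be told apart.

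All 5 genes differed among the 9 groups (limma's moderated F test, 5 of 5 at an adjusted p below 0.05), a result shared by 78% of the genes tested. Group means spanned 5.76 for Irf8, 4.42 for Cebpd, 3.62 for Cebpa, 3.25 for Gfi1 and 2.77 for Cebpb. These spans were wider than those of 97.83%, 94.09%, 89.49%, 86.22% and 79.86% of the tested genes in the same order. Cebpa, Cebpd and Gfi1 were highest in GMP, Cebpb in HSC and Irf8 in Ets1-deficient NK cells. Pro-B cells were lowest for all 3 C/EBP genes on the probe set of highest mean. On the second, dim probe sets, pro-B cells were highest for Cebpb (3.58) and HSC were lowest for Cebpd (2.73). Of the 36 pairs of groups, 27 differed for Cebpd, 25 for Irf8, 20 for Cebpa, 17 for Cebpb and 14 for Gfi1 in limma at an adjusted p below 0.05. In any 1 pair, 1.71% to 51.6% of tested genes were called. The number of pairs called for other genes was not counted, so these member counts have no background to be read against.

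**Figure D1:**
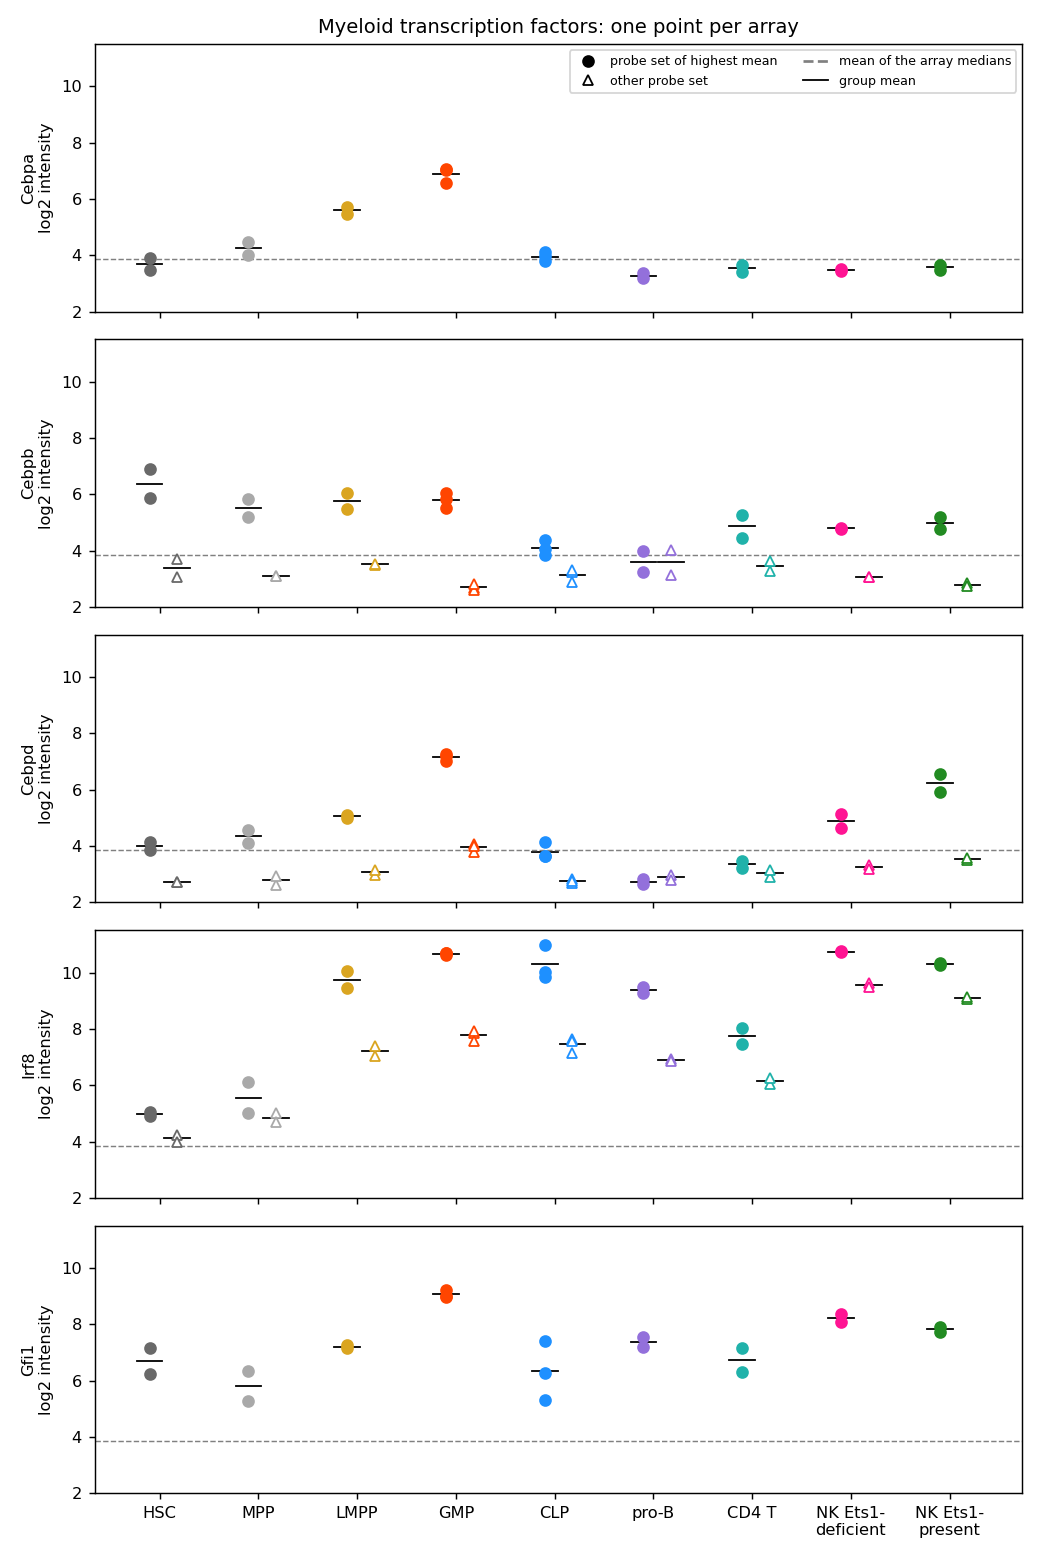
Log2 intensity (y axis) of Cebpa, Cebpb, Cebpd, Irf8 and Gfi1 on each of the 20 arrays by group (x axis), with filled circles for the probe set of highest mean, open triangles for any other probe set, bars for group means and a dashed line at the mean of the array medians. On the filled circles, Cebpa lies above 5 in LMPP and GMP only, and Irf8 lies above 9 from LMPP onwards except in CD4 T cells. The open triangles of Irf8 lie above 9 in NK cells only.

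GMP were set against LMPP, which can give rise to both lineages, and against CLP, the lymphoid progenitor. Cebpa, Cebpd and Gfi1 rose in GMP over both. Cebpb rose over CLP and was not called against LMPP, while Irf8 passed the test against LMPP by a margin lost with any 1 array and was not called against CLP. In GMP over LMPP, 4 of the 5 genes rose and none fell, where 28.9% of tested genes were called, 16% higher and 13% lower. In GMP over CLP, 4 of the 5 rose and none fell, where 49.1% were called, 31% higher and 18.1% lower. The comparisons share the GMP arrays.

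Cebpa had 7.06, 7.04 and 6.58 on the GMP arrays, against 5.46 and 5.72 on the LMPP arrays and 3.96, 3.78 and 4.11 on the CLP arrays. The 3 groups did not overlap, and the CLP values lay at the array median. The level was 2.47-fold higher in GMP than in LMPP (log2 change 1.30 ± 0.23, SE; limma adjusted p = 0.000255) and 7.71-fold higher than in CLP (2.95 ± 0.20, adjusted p = 2.14e-09). Cebpd had 7.20, 7.26 and 7.03 in GMP, against 5.02 and 5.12 in LMPP and 3.63, 3.64 and 4.15 in CLP. It showed the same order as Cebpa with a wider step between GMP and LMPP. The level was 4.27-fold higher in GMP than in LMPP (2.09 ± 0.25, adjusted p = 6.17e-06) and 10.2-fold higher than in CLP (3.36 ± 0.23, adjusted p = 1.79e-09). The second Cebpd probe set was dim but also rose in GMP, by 0.89 ± 0.17 over LMPP (adjusted p = 0.00105) and by 1.21 ± 0.16 over CLP (adjusted p = 1.24e-05), in the fit of every probe set on its own.

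Cebpb had 6.04, 5.83 and 5.50 in GMP, against 6.05 and 5.47 in LMPP and 4.40, 3.86 and 4.06 in CLP. GMP and LMPP overlapped fully, with a difference of 0.03 (95% interval -0.69 to 0.75, adjusted p = 0.961), and both lay above every CLP array. The rise over CLP was 3.22-fold (1.69 ± 0.31, adjusted p = 0.000242). The second Cebpb probe set lay between 2.61 and 4.03 on all arrays, above the array median on 1 of 20, and did not follow the first (r = -0.15 over 20 arrays). It was too dim to be tested on its own.

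Gfi1 had 9.22, 9.03 and 8.98 in GMP, against 7.15 and 7.26 in LMPP and 5.32, 7.43 and 6.29 in CLP. GMP was the higher group on every array, while the CLP arrays spread widely and straddled LMPP. The level was 3.65-fold higher in GMP than in LMPP (1.87 ± 0.45, adjusted p = 0.00433) and 6.64-fold higher than in CLP (2.73 ± 0.41, adjusted p = 3.32e-05). With CLP replicate 2 as the single CLP array, the change over CLP was 1.65 (adjusted p = 0.00705).

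Irf8 had 10.68, 10.71 and 10.62 in GMP, against 9.45 and 10.06 in LMPP and 10.03, 10.99 and 9.86 in CLP. GMP lay above both LMPP arrays but inside the range of CLP. The change over LMPP was 0.92 ± 0.34 (adjusted p = 0.0498), and it was not called when any 1 of the 5 GMP and LMPP arrays was left out (0.62 to 1.22, adjusted p = 0.061 to 0.377). The second Irf8 probe set gave 0.55 ± 0.25 (adjusted p = 0.114). Against CLP the change was 0.38 ± 0.30 (adjusted p = 0.309), and without CLP replicate 2 it was called at 0.73 (adjusted p = 0.0303).

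**Figure D2:**
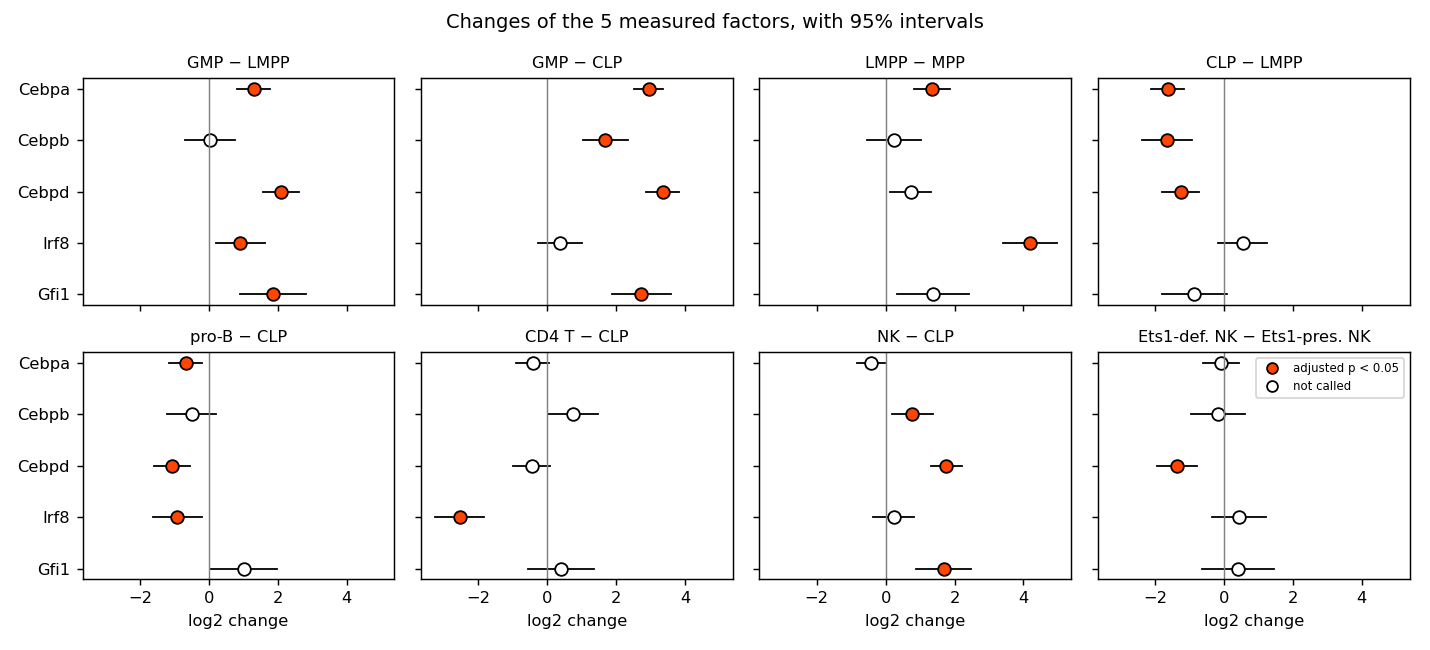
Log2 change (x axis, with 95% intervals) of each of the 5 genes (rows) in 8 comparisons, one panel each, named as group minus group, with filled points for an adjusted p below 0.05. GMP over LMPP and GMP over CLP have 4 filled points each on the positive side, and CLP over LMPP has 3 on the negative side.

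Between the early progenitors, Irf8 and Cebpa were higher in LMPP than in MPP. Of the 5 genes, 2 rose in LMPP over MPP and none fell, where 1.71% of tested genes were called, 0.942% higher and 0.772% lower. In MPP over HSC none was called by limma, 2 had an unadjusted p below 0.05 (Cebpa at 0.55 and Cebpb at -0.86), and 5.93% of tested genes were called, 1.94% higher and 3.99% lower.

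Irf8 had 5.05 and 4.91 in HSC, 6.11 and 5.0 in MPP, and 9.45 and 10.06 in LMPP. HSC and MPP overlapped, and both LMPP arrays lay far above them. The level was 18.4-fold higher in LMPP than in MPP (4.20 ± 0.37, adjusted p = 2.27e-06), and on the second probe set it was 5.15-fold higher (2.37 ± 0.27, adjusted p = 5.32e-05). Cebpa had 3.90 and 3.48 in HSC, 4.47 and 4.0 in MPP, and 5.46 and 5.72 in LMPP, so each stage lay above the one before on every array. The step from MPP to LMPP was 2.55-fold (1.35 ± 0.25, adjusted p = 0.00449). It was not called without LMPP replicate 2 (1.22, adjusted p = 0.0899), without MPP replicate 2 (1.12, adjusted p = 0.113) or with arrays centred on housekeeping genes (1.28, adjusted p = 0.0991).

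Gfi1 had 6.24 and 7.16 in HSC, 6.34 and 5.30 in MPP, and 7.15 and 7.26 in LMPP. Both LMPP arrays lay above both MPP arrays, but the change of 1.39 ± 0.50 was not called (adjusted p = 0.291), except with array weights (adjusted p = 0.0221) or CLP replicate 2 as the single CLP array (adjusted p = 0.0403). Cebpd had 3.85 and 4.15 in HSC, 4.58 and 4.11 in MPP, and 5.02 and 5.12 in LMPP, with a change of 0.72 ± 0.28 in LMPP over MPP (adjusted p = 0.357). Cebpb had its highest values in HSC, 6.88 and 5.87, followed by 5.84 and 5.18 in MPP and 6.05 and 5.47 in LMPP. The HSC arrays lay farther from each other than their mean lay from that of MPP, and no step was called.

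On the lymphoid side, the 3 C/EBP genes fell in CLP relative to LMPP while Irf8 and Gfi1 were not called. Of the 5 genes, 3 fell and none rose, where 26.1% of tested genes were called, 6.96% higher and 19.2% lower. Cebpa fell to 3.95 ± 0.16 in CLP (SD, n = 3), against 5.59 ± 0.19 in LMPP (n = 2), a change of -1.64 ± 0.23 (SE; limma adjusted p = 6.18e-05). Cebpb was 4.10 ± 0.27 in CLP and 5.76 ± 0.41 in LMPP, a change of -1.66 ± 0.34 (adjusted p = 0.00202). Cebpd was 3.81 ± 0.30 in CLP and 5.07 ± 0.07 in LMPP, a change of -1.26 ± 0.25 (adjusted p = 0.00164). For all 3 genes every CLP array lay below both LMPP arrays. The housekeeping genes were themselves 0.78 lower in CLP than in LMPP, and with arrays centred on them the changes were -0.88 for Cebpb (adjusted p = 0.079) and -0.49 for Cebpd (adjusted p = 0.251), neither called, while Cebpa stayed called. Irf8 changed by 0.54 ± 0.34 (adjusted p = 0.259) and Gfi1 by -0.86 ± 0.45 (adjusted p = 0.173). Irf8 was called as higher in CLP at 1.31 with arrays centred on housekeeping genes (adjusted p = 0.00106), at 0.87 after quantile normalization (adjusted p = 0.0343) and at 1.23 with CLP replicate 2 as the single CLP array (adjusted p = 0.0441). Gfi1 was called as lower at -1.40 without CLP replicate 2 (adjusted p = 0.00736) and at -1.37 with array weights (adjusted p = 0.00634).

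In pro-B cells relative to CLP, 3 of the 5 genes fell and none rose, where 35.1% of tested genes were called, 21.1% higher and 14% lower. Cebpd had 2.66 and 2.82 in pro-B cells, against 3.63, 3.64 and 4.15 in CLP, a change of -1.07 ± 0.25 (adjusted p = 0.00339). All of these values lay near or below the array medians, and the second Cebpd probe set changed by 0.14 ± 0.17 (adjusted p = 0.567). Cebpa changed by -0.67 ± 0.23 (adjusted p = 0.0268), also between levels near or under the array median, and the call was lost without CLP replicate 1 (-0.67), CLP replicate 3 (-0.60), pro-B replicate 1 (-0.59) or pro-B replicate 2 (-0.76). Irf8 had 9.26 and 9.50 in pro-B cells, against 10.03, 10.99 and 9.86 in CLP, a change of -0.91 ± 0.34 (adjusted p = 0.0444). That call was lost without CLP replicate 2 (-0.56), pro-B replicate 1 (-0.79) or pro-B replicate 2 (-1.03), so only Cebpd of the 3 kept its call with either pro-B array left out. With CLP replicate 2 as the single CLP array Cebpd was not called either (-0.90, adjusted p = 0.0644). Gfi1 had 7.20 and 7.55 in pro-B cells, a change of 1.03 ± 0.45 over CLP (adjusted p = 0.0864), and was called at 1.57 without CLP replicate 2 (adjusted p = 0.00273).

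CD4 T cells had less Irf8 than CLP, and the 3 C/EBP genes and Gfi1 were not called. Irf8 had 8.04 and 7.46 in CD4 T cells, against 10.03, 10.99 and 9.86 in CLP, a 5.82-fold difference (-2.54 ± 0.34, adjusted p = 8.27e-06). The second probe set fell by 1.31 on the log2 scale (adjusted p = 0.000386). It was the single member called in this comparison, where 48.7% of tested genes were called, 29% higher and 19.7% lower. Without CD4 T replicate 2, Cebpb was called as well, at 1.17 (adjusted p = 0.0376), and without CLP replicate 2, Gfi1 was, at 0.94 (adjusted p = 0.0457). With arrays centred on housekeeping genes, Cebpa and Cebpd were called too, at -1.10 (adjusted p = 0.00855) and -1.13 (adjusted p = 0.00983). Among 6 markers of dendritic cells, which are known for high Irf8, the mean level was 6.52 and 6.85 in CD4 T cells, against 5.98 to 6.12 in CLP. The genes differed in direction: H2-Aa (10.86 in CD4 T cells and 8.33 in CLP), Cd74 (8.21 and 5.60 in the same groups) and Batf3 (4.12 and 3.54) were higher in CD4 T cells, and Siglech (4.90 and 5.08), Ccr9 (7.15 and 8.22) and Itgax (4.85 and 5.63) were lower.

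The 2 probe sets of Irf8 ordered the groups alike at the low end and differed at the high end. Both changed in the same direction in 9 of 9 comparisons, and they correlated at r = 0.913 over the 20 arrays, which share platform and normalization. On the probe set of higher mean, Ets1-deficient NK cells (10.74 ± 0.02, SD, n = 2), GMP (10.67 ± 0.05, n = 3), Ets1-present NK cells (10.31 ± 0.06, n = 2) and CLP (10.29 ± 0.61, n = 3) followed each other with no neighbouring pair called. On the second, the Ets1-deficient arrays had 9.64 and 9.49 and the Ets1-present arrays 9.08 and 9.14, all above the 7.57 to 7.91 of GMP and the 7.13 to 7.66 of CLP. The first probe set exceeded the second by 2.90 in GMP, 2.84 in CLP and 2.53 in LMPP, and by 1.18 and 1.20 in Ets1-deficient and Ets1-present NK cells. The gap was 2.47 in pro-B cells, 1.61 in CD4 T cells, 0.87 in HSC and 0.70 in MPP. The part of the actin 3′ excess, which was 6.44 to 6.68 in GMP, 1.92 to 2.10 in LMPP and 1.88 to 2.18 in MPP, was not tested. Which Irf8 transcripts each probe set detects was not analysed here.

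**Figure D3:**
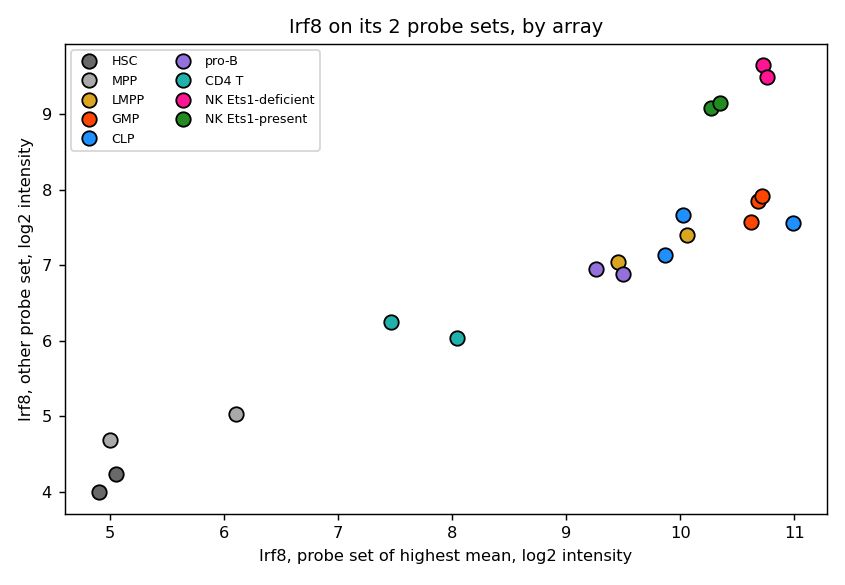
Log2 intensity of Irf8 on its 2 probe sets, with the probe set of higher mean on the x axis, the other on the y axis, and one point per array coloured by group. The 4 NK arrays lie at or above 9.08 on the y axis, while GMP arrays with a similar x value lie at or below 7.91.

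NK cells had more Cebpd, Gfi1 and Cebpb than CLP, with the mean of both Ets1 genotypes as the NK level. Of the 5 genes, 3 rose and none fell, where 59% of tested genes were called, 36.4% higher and 22.6% lower. Strain and Rag2 genotype cannot be told apart from cell type in this comparison. Cebpd changed by 1.76 ± 0.21 (adjusted p = 1.67e-06), and its second probe set by 0.64 ± 0.15 (adjusted p = 0.00138). Gfi1 had 8.39 and 8.09 in Ets1-deficient NK cells and 7.90 and 7.75 in Ets1-present NK cells, against 5.32, 7.43 and 6.29 in CLP. Its change was 1.69 ± 0.38 (adjusted p = 0.00102), and with CLP replicate 2 as the single CLP array it was 0.60 and not called (adjusted p = 0.257). Cebpb changed by 0.78 ± 0.29 (adjusted p = 0.0279), a call lost without CLP replicate 2 (0.65), CLP replicate 3 (0.75), either Ets1-deficient replicate (0.77 and 0.78) or Ets1-present replicate 2 (0.67). With arrays centred on housekeeping genes the Cebpb change was 0.11 (adjusted p = 0.785), and averaging both Cebpb probe sets gave 0.28 (adjusted p = 0.208). It was also not called with array weights (0.64) or with CLP replicate 2 as the single CLP array (1.02). Irf8 changed by 0.23 ± 0.28 (adjusted p = 0.49) on the probe set of higher mean and by 1.89 ± 0.21 (adjusted p = 8.51e-07) on the second. Cebpa lay below the array median on all 4 NK arrays, at 3.45 to 3.65, and was called as lower in NK cells with arrays centred on housekeeping genes (-1.09, adjusted p = 0.00209).

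Between the NK genotypes, 1 of the 5 genes was called, Cebpd, which fell in Ets1-deficient cells, where 3.81% of tested genes were called, 1.59% higher and 2.23% lower. Cebpd had 5.15 and 4.63 in Ets1-deficient NK cells, against 5.94 and 6.57 in Ets1-present NK cells. The genotypes did not overlap, and the change was -1.36 ± 0.28 (limma adjusted p = 0.0069), or 2.57-fold lower. The call was lost without Ets1-deficient replicate 2 (-1.10, adjusted p = 0.117) and without Ets1-present replicate 2 (-1.04, adjusted p = 0.167), so that no member was then called. The second Cebpd probe set changed by -0.30 ± 0.19 (adjusted p = 0.59).

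Irf8 had 10.73 and 10.76 in Ets1-deficient NK cells, against 10.27 and 10.35 in Ets1-present NK cells, and on its second probe set 9.64 and 9.49 against 9.08 and 9.14. The arrays did not overlap on either probe set, but the changes of 0.43 ± 0.37 (adjusted p = 0.79) and 0.46 ± 0.27 (adjusted p = 0.529) were not called. The 95% interval of the first ran from -0.35 to 1.21, and it was called when the NK arrays were fitted alone (adjusted p = 0.0331). Gfi1 changed by 0.42 ± 0.50 (adjusted p = 0.899), Cebpb by -0.18 ± 0.38 (adjusted p = 0.97) and Cebpa by -0.09 ± 0.25 (adjusted p = 0.976). Ets1 itself was lower in Ets1-deficient NK cells on each of its 4 probe sets, by 0.33 to 1.55. By limma 1 of the 4 was called (-1.55, adjusted p = 0.00865). That fit held all 45101 probe sets with no filter on dim ones, so its adjusted p differs in basis from the others. The position of these probe sets in the Ets1 gene was not analysed here, so they do not check the genotype.

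Late neutrophil genes moved with Cebpd in the NK arrays. The mean level of 8 late neutrophil markers was 8.39 and 7.62 in Ets1-deficient NK cells and 9.22 and 9.35 in Ets1-present NK cells, against 3.59 to 4.67 in CLP and 6.39 to 6.65 in GMP. Their summed linear intensity was 3054.5 to 5514.2 in Ets1-deficient and 10969.6 to 11366.4 in Ets1-present NK cells, and 101.8 to 251.9 in CLP. All 8 lay above the array median on each NK array. Within each genotype the array with the higher Cebpd also had the higher marker level. With 2 arrays per genotype, this order cannot decide whether Cebpd and the markers go together within a genotype. Over all tested genes, 36.4% were called higher in NK cells than in CLP. Between the genotypes, 2.23% of all tested genes were called lower in Ets1-deficient NK cells. The list of 11 genes read next holds all 8 late neutrophil markers, so it is not separate evidence. Of 11 secondary granule and late neutrophil genes, 11 rose in NK cells over CLP, and 4 fell in Ets1-deficient relative to Ets1-present NK cells (Ltf by 1.94, Cybb by 1.66, Lcn2 by 1.60 and Fcnb by 1.06), and a single one of these was called when Ets1-deficient replicate 2 or either Ets1-present array was left out. Of the 11, 10 fell with array weights, 9 with CLP replicate 2 as the single CLP array, 8 with the NK arrays fitted alone and 2 after quantile normalization. Of 5 primary granule genes, 4 fell with Ets1 deficiency (Mpo by 3.59, Ctsg by 2.45, Prtn3 by 2.35 and Elane by 1.33), and 2 of the 5 when Ets1-present replicate 1 or Ets1-deficient replicate 2 was left out. The monocyte and macrophage markers averaged 4.57 to 4.96 in Ets1-deficient and 4.83 to 5.15 in Ets1-present NK cells. This mean lay near the 4.67 to 4.82 of CLP, but its genes went both ways. In group means, Lyz2 (7.08 in Ets1-deficient NK, 8.29 in Ets1-present NK and 5.71 in CLP), Cd68 and F13a1 were higher in both NK genotypes. Csf1r (5.82, 6.13 and 8.83 in the same groups), C1qa and Adgre1 were lower in both. C1qb was lower than CLP in Ets1-deficient and higher in Ets1-present NK cells. The part of neutrophil RNA in the Cebpd values of NK cells was not tested.

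**Figure D4:**
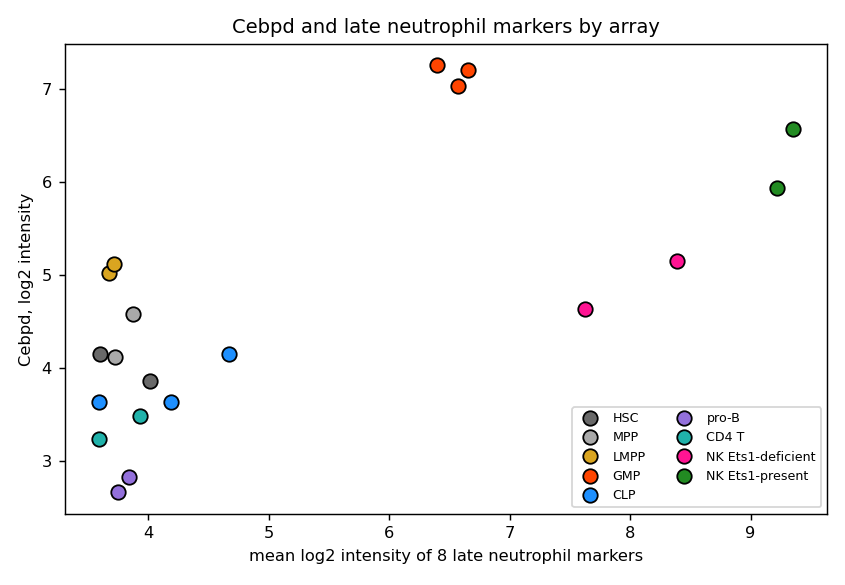
Cebpd log2 intensity (y axis) against the mean log2 intensity of 8 late neutrophil markers (x axis), one point per array coloured by group. The Ets1-deficient NK arrays (markers 7.62 and 8.39) lie below and to the left of the Ets1-present arrays (9.22 and 9.35), and the GMP arrays have the highest Cebpd at marker levels of 6.39 to 6.65.

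In order of level, Cebpa dropped at 2 places, from GMP (6.89 ± 0.27, SD, n = 3) to LMPP (5.59 ± 0.19, n = 2) and from LMPP to MPP (4.24 ± 0.33, n = 2). After MPP came CLP, HSC, Ets1-present NK, CD4 T, Ets1-deficient NK and pro-B cells, between 3.95 and 3.27. From MPP down no neighbours were called, and MPP arrays overlapped those of CLP (gap 0.29, adjusted p = 0.368 by limma). Cebpd was highest in GMP (7.16 ± 0.12), above Ets1-present NK cells (6.25 ± 0.45; adjusted p = 0.00872 by limma, in a pair with 33.5% of tested genes called), which lay above LMPP (5.07 ± 0.07; adjusted p = 0.00264, 35.4% called). Ets1-deficient NK cells came next (4.89 ± 0.36), then MPP, HSC, CLP, CD4 T and pro-B cells down to 2.74, with no neighbours called. Irf8 dropped at 2 places, between pro-B cells (9.38 ± 0.17) and CD4 T cells (7.75 ± 0.41; adjusted p = 0.00225, 28.8% of tested genes called) and between CD4 T cells and MPP (5.56 ± 0.78; adjusted p = 0.000126, 36.2% called). Cebpb declined without a called step between neighbours, through HSC (6.38 ± 0.71), GMP (5.79 ± 0.27), LMPP (5.76), MPP (5.51), Ets1-present NK (4.97), CD4 T (4.86), Ets1-deficient NK (4.79), CLP (4.10) and pro-B cells (3.60 ± 0.52). Gfi1 likewise had no called neighbours, from GMP (9.07 ± 0.13) through Ets1-deficient NK (8.24 ± 0.21), Ets1-present NK (7.82 ± 0.11), pro-B (7.37), LMPP (7.21), CD4 T (6.74), HSC (6.70) and CLP (6.34) to MPP (5.82 ± 0.74). GMP exceeded Ets1-present NK cells in Gfi1 by 1.25 ± 0.45 (adjusted p = 0.0402). Against Ets1-deficient NK cells the difference of 0.84 ± 0.45 was not called (adjusted p = 0.198), in a pair with 27.7% of tested genes called.

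The genes that act beside these factors were read in GMP, where 28.9% of all tested genes were called over LMPP and 49.1% over CLP. The list of primary granule genes includes known C/EBP and Gfi1 dependent genes of early granulocytes. In this list 5 of 5 members rose over LMPP and over CLP. Their medians were 3.07 and 7.05, against -0.04 and 0.09 for all tested genes. Mpo, Elane, Prtn3 and Ctsg of this list were also GMP markers, so their rise repeats the marker check and is not separate evidence. Over LMPP the largest changes were those of Ms4a3, which encodes a membrane protein of granulocyte precursors (11.23 in GMP and 3.91 in LMPP), and Elane, neutrophil elastase (8.15 in GMP and 4.80 in LMPP). Of 11 secondary granule and late neutrophil genes, 9 rose over LMPP and 9 over CLP, led by S100a8, a subunit of calprotectin, at 7.20 ± 0.42 over LMPP (adjusted p = 5.05e-10). Mmp8 and Mmp9, neutrophil collagenase and gelatinase, changed by 0.51 (adjusted p = 0.091) and 0.14 (adjusted p = 0.745) over LMPP.

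Growth factor receptors known to be under C/EBP control were 5 in number. Over CLP 4 rose, Csf1r by 1.99, Csf2rb by 1.83, Csf3r by 1.39 and Csf2ra by 0.86. Over LMPP the M-CSF receptor Csf1r rose by 2.14 ± 0.39 (adjusted p = 0.000421) and the shared beta chain Csf2rb by 1.32 ± 0.32 (adjusted p = 0.00426), whereas the G-CSF receptor Csf3r fell by 1.08 (adjusted p = 0.0311) and the IL-6 receptor Il6ra by 1.24 (adjusted p = 0.0328). The 2 falls were both lost without GMP replicate 2, GMP replicate 3, LMPP replicate 1 or LMPP replicate 2, and 1 was lost without GMP replicate 1. Both were also lost with arrays centred on housekeeping genes, and 1 after quantile normalization or with the replicate block. Without LMPP replicate 1, 1 receptor rose.

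Of 10 tested genes reported as repressed by Gfi1, 5 fell and 1 rose in GMP over LMPP, with a median of -0.81 against -0.04 for all tested genes. Egr1, an immediate early factor associated with the monocyte fate, fell by 6.87 (4.15 in GMP and 11.02 in LMPP, adjusted p = 1.26e-08), and the homeobox gene Meis1 fell by 3.83 (adjusted p = 6.39e-06). Id2, an inhibitor of E proteins, rose by 1.83 (adjusted p = 0.0025). The 5 falls became 3 without GMP replicate 1, GMP replicate 3 or LMPP replicate 2, and 2 without LMPP replicate 1, and they were 3 with arrays centred on housekeeping genes. Over CLP 5 fell and 1 rose, with the IL-7 receptor gene Il7r lower by far (3.72 in GMP and 11.37 in CLP). The rise, again that of Id2, was lost without CLP replicate 1, CLP replicate 3, GMP replicate 1 or GMP replicate 2, and with centring 7 fell and none rose. Of 6 corepressor and partner genes of Gfi1, 1 fell over LMPP, the partner gene Zbtb17 (Miz-1), by 1.12. Over CLP 2 rose (Rcor1 by 1.44 and Hdac3 by 0.82) while Zbtb17 fell by 0.64. The counts over CLP were 1 rise without CLP replicate 1 or 3 and with centring or quantile normalization, 4 rises without CLP replicate 2, and no fall without CLP replicate 2, CLP replicate 3 or any 1 GMP array.

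Of 12 monocyte and dendritic genes tied to Irf8, 5 rose and 1 fell in GMP over LMPP, and 6 rose and 2 fell over CLP, which is 6 of 12 and 8 of 12 called against 28.9% and 49.1% of all tested genes. The transglutaminase gene F13a1 rose by 5.62 and the NADPH oxidase gene Cybb by 5.46 over LMPP, while the chemokine receptor gene Ccr2 fell by 1.18. The fall over LMPP was lost without GMP replicate 1, GMP replicate 2, LMPP replicate 1 or LMPP replicate 2 and with arrays centred on housekeeping genes, while 3 fell with array weights or the compared arrays alone. Over CLP the zinc finger factor gene Klf4 rose by 3.02 (8.05 in GMP and 5.02 in CLP), and Ccr2 and the plasmacytoid gene Siglech fell by 0.95 and 0.93, with 1 fall called without CLP replicate 1, GMP replicate 1 or GMP replicate 2.

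Partner and opposing transcription factors went both ways. Of 19 tested, 2 rose and 6 fell in GMP over LMPP, where 28.9% of all tested genes were called, with a median of -0.39. After Egr1, the largest changes were in Irf1 (-2.13), Id2 (1.83) and Irf2 (-1.60). Spi1, which encodes the Irf8 partner PU.1 and was singled out after its values were seen, lay at 6.52 in GMP and 7.76 in LMPP, and fell by 1.24 (adjusted p = 0.00257). Without LMPP replicate 1 or 2, 1 of these factors rose and 5 fell, and with array weights or the compared arrays alone 4 rose and 9 fell. Over CLP 4 rose and 5 fell, where 49.1% of all tested genes were called, and with arrays centred on housekeeping genes 2 rose and 9 fell. The members that moved most were Egr1 (-3.91), Klf4 (3.02), Irf4 (-2.15) and Irf2 (-1.76). Without CLP replicate 3, GMP replicate 1 or GMP replicate 2, 2 rose. Of 6 C/EBP relatives and Tribbles regulators, 1 fell over LMPP, Trib3 by 1.09, and over CLP Trib3 fell by 1.26 while the C/EBP partner gene Cebpg rose by 0.61. The Cebpg call was lost without CLP replicate 1, CLP replicate 3, GMP replicate 1 or GMP replicate 2, and with centring or quantile normalization. Over LMPP no gene of this list fell without LMPP replicate 1 or with centring, 2 fell without LMPP replicate 2, and 3 fell with array weights.

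The genes with profiles most like each member were ranked by Pearson's r over the 9 group means among the 5365 tested genes that spanned at least 2 log2 units, as a description over arrays that share platform and normalization. Cebpa was closest to Abcd2 (r = 0.979), followed by Bpifc, Sgk3, Egln3 and Clec10a (0.941 to 0.951), all highest in GMP. Cebpd was closest to Acer3 (0.955), then Rassf4, Gpr160, Zfp52 and Tgfbi (0.916 to 0.949), and Gfi1 to Hspa13 (0.97), then Fam91a1, Slc33a1, Krr1 and Apmap (0.94 to 0.961). Cebpb was closest to Dnajb9 (0.949), then Tmed3, Creg1, Insig1 and Dnajb4 (0.927 to 0.943), of which all but Tmed3 were highest in HSC. Irf8 had the weakest matches, Slc39a6 (0.923), Dck, Gpsm1, Azin1 and Rif1 (0.884 to 0.896). The ranks depended in part on averaging. Over the 20 arrays, Abcd2 stayed at rank 1 for Cebpa (r = 0.956). Sgk3 was at rank 67 for Cebpa (r = 0.822), Azin1 at 18 for Irf8 and Zfp52 at 14 for Cebpd. Among the members themselves, r over the 9 group means ran from -0.465 between Cebpb and Irf8 to 0.69 between Cebpa and Cebpd. None of the 5 was therefore among another's closest profiles.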

How the data were processed

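RNA from sorted cells was amplified in 2 rounds, biotin-labelled and hybridised to 1 array per sample, per the labels' protocols. The deposited table holds 1 intensity per probe set on a linear scale, made with RMA (background correction, normalization between arrays and summary of probes), per the submitters' processing notes. Because log2 values had been assumed when the tests were designed, log2 of the deposited intensities was taken first. Of the probe sets, 34958 had 1 gene symbol in the platform table, 932 had several and 9211 had none, and 34754 of those with 1 symbol matched a RefSeq gene (GRCm38.p6, used for names). A gene was read from its single-symbol probe set of highest mean, which left 18194 genes, and tested where 2 or more arrays had it above their median (13479 genes; 4715 dim). Promoters came from RefSeq.

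In R 4.3.3, limma 3.58.1 (lmFit, eBayes with an intensity trend) fitted 1 model to the 9 groups, which left 11 residual degrees of freedom. Benjamini-Hochberg adjustment ran over all tested genes, and a call needed an adjusted p below 0.05. The number of arrays limits the precision. The method was tested on simulated data. No replicate columns were identical (r = 0.918 to 0.997).

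The members, lists and tests were chosen with earlier results of these data known. Of other lists, up to 4 called members per comparison are named by size of change, or the 2 largest where none was called; in counts of 5 or fewer, others were named after their values were seen. Some members of lists were not analysed here.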

Additional observations from a re-analysis of the deposited data

How the results depend on the processing

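The 45 changes of members were recomputed under other filters, probe set rules, normalizations, sample sets and array weights, and without each replicate. Of these values 630 kept direction and side of the threshold, 40 lost their call, 20 gained one and 21, none of them called in either setting, changed sign. The number of members called moved by more than 1.5 times in these settings. With CLP replicate 2 as the single CLP array it was 1 for NK over CLP and 1 for pro-B over CLP. With the compared arrays alone it was 2 for the NK genotypes (Irf8 added) and 1 for pro-B over CLP. With arrays centred on housekeeping genes it was 3 for CD4 T over CLP and 1 for LMPP over MPP, and it was 1 for LMPP over MPP when genes had to lie above the median on at least 10 arrays, which left Cebpa untested. Smaller moves were these. GMP over LMPP had 3 with no filter on dim genes or with every probe set. CLP over LMPP had 2 with centring (1 higher, 1 lower) and 4 with CLP replicate 2 alone, quantile normalization (each 3 lower, 1 higher) or array weights. NK over CLP had 4 with every probe set (all higher) or the mean of probe sets (3 higher, 1 lower), 2 with array weights, and 3 with centring of which 1 was lower. Pro-B over CLP had 4 with centring and 2 with every probe set, no filter, quantile normalization or array weights (there 1 higher, 1 lower). LMPP over MPP had 3 with array weights or CLP replicate 2 alone. The stricter filter, with Cebpa untested, also gave 1 fewer in GMP over LMPP, GMP over CLP, CLP over LMPP and pro-B over CLP. Leaving out 1 array gave 1 to 2 for CD4 T over CLP, 3 to 4 for CLP over LMPP, 0 to 1 for the NK genotypes, 4 to 5 for GMP over CLP, 3 in every case for GMP over LMPP, 1 to 2 for LMPP over MPP, 2 to 3 for NK over CLP and 1 to 3 for pro-B over CLP.

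Sign changes were as follows. Cebpb in GMP over LMPP was -0.39 with the mean of its probe sets, -0.058 after quantile normalization and -0.26 to 0.32 with 1 array left out (below 0 without LMPP replicate 2 or GMP replicate 1). In LMPP over MPP it was -0.082 to 0.58 with 1 array left out (below 0 without MPP replicate 2 or LMPP replicate 1). Between NK genotypes it was 0.048 with the mean of its probe sets and -0.39 to 0.029 with 1 array left out (above 0 without Ets1-present replicate 2). Gfi1 in CD4 T over CLP was -0.28 with housekeeping centring, -0.69 with CLP replicate 2 alone, -0.038 after quantile normalization and -0.12 to 0.94 with 1 array left out (below 0 without CLP replicate 1 or CD4 T replicate 1); with CLP replicate 2 alone it was 0.22 in CLP over LMPP and -0.0545 in pro-B over CLP. Irf8 with housekeeping centring, CLP replicate 2 alone and quantile normalization was -0.13, -0.31 and -0.058 in GMP over CLP and -0.43, -0.46 and -0.24 in NK over CLP. Apart from the settings whose construction shows it, the cause was not tested.

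Centring on housekeeping genes moved every change by -0.68 in CD4 T over CLP, -0.66 in NK over CLP, -0.58 in pro-B over CLP, -0.51 in GMP over CLP, 0.78 in CLP over LMPP, 0.26 in GMP over LMPP, -0.18 in MPP over HSC and -0.12 between the NK genotypes. The genes called among all tested ranged from 2273 to 7528 for GMP over LMPP (main 3899), 2883 to 12228 for GMP over CLP (6614), 101 to 1626 for MPP over HSC (799), 104 to 467 for LMPP over MPP (231), 551 to 6787 for CLP over LMPP (3522), 1584 to 8680 for pro-B over CLP (4726), 3579 to 12318 for CD4 T over CLP (6570), 4537 to 15475 for NK over CLP (7954), 198 to 1778 between NK genotypes (514) and 9290 to 21315 for any group (10518), the upper ends partly from testing every probe set. Of 73 same-numbered pairs of arrays, 11 deviated together from their group means at r over 0.1 (range -0.233 to 0.396). In groups of 2 arrays the 2 deviations mirror each other, so these pairs repeat each other in part. They cannot decide whether replicate numbers pair the samples. With the replicate block the members called stayed at 4 for GMP over LMPP, 4 for GMP over CLP, 0 for MPP over HSC, 2 for LMPP over MPP, 3 for CLP over LMPP, 3 for pro-B over CLP, 1 for CD4 T over CLP, 3 for NK over CLP and 1 between the NK genotypes.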
